A study of Homo sapiens with 6 samples.

Results

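The genes described here build, attach and trim the glycosylphosphatidylinositol (GPI) anchor. They were taken by platform symbol: PIG followed by 1 letter (PIGR excluded), PGAP followed by a number, DPM1 to DPM3, GPAA1, GPLD1, MPPE1 and TMEM8A, which the annotation lists under its current name PGAP6. This gave 31 of 19775 genes, read by 72 of 41091 probe sets that name a single gene. PIGY was read only by 2 probe sets shared with PYURF and is not counted. The brightest probe set of a gene, by its mean over the 6 arrays, gave its main value, and all others were kept. The family was chosen by the measured changes of PIGL, whose probe sets moved in opposite directions between the groups compared here. The values of PIGL are therefore a description, with no test, while the other 30 genes entered by name. The naming rule was itself set with earlier results of these data known.

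RNA came from HaCaT, a spontaneously immortalised human keratinocyte line, on 6 Affymetrix arrays. The series compared 3 negative pressure cultures (a gradient of 125 mmHg, applied over 12 h) with 3 cultures kept 12 h at ambient pressure. The labels name biological replicates of 1 cell line and say nothing of separate days, so p-values measure the spread between these cultures. All values are log2 signals, and every change is negative minus ambient pressure on that scale. A gene passed when its adjusted p in limma (Benjamini-Hochberg over all genes) was under 0.05. With 3 arrays per group, the number of arrays limits precision.

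The replicate 3 arrays of both groups stood apart. They lay at 20.3 and 31.1 on the first principal component, the other 4 between -18.3 and -9.07. Of 11 measured keratinocyte markers, 10 lay above the median gene signal, and 0 passed between the groups. Their summed signal was 103.7 to 104.2 at ambient and 105.2 to 105.8 under negative pressure, and its part in the results was not tested. Of 18 measured markers of fibroblasts, melanocytes, immune and endothelial cells, 3 lay above that median, and only CDH5 passed, from 4.81 to 4.01, below that median.

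A GPI anchor is a glycolipid that holds proteins at the outer face of the plasma membrane without a transmembrane segment. It is assembled stepwise in the endoplasmic reticulum, starting with the transfer of N-acetylglucosamine to phosphatidylinositol and the removal of its acetyl group by PIGL. Inositol acylation, mannoses and ethanolamine phosphates follow, a transamidase moves the finished glycolipid onto the protein, and remodelling enzymes then trim it. In keratinocytes such anchors carry complement regulators, glypicans, ephrin-A ligands and Ly6-type proteins.

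PIGL, the de-N-acetylase of the second step, gave opposite readings from its 2 brightest probe sets. The brightest, 213889_at, read 5.79, 5.85 and 6.0 in ambient replicates 1, 2 and 3, and 6.86, 7.12 and 7.34 in negative pressure replicates 1, 2 and 3. All 3 negative pressure arrays lay above all ambient arrays, with means of 7.11 ± 0.24 against 5.88 ± 0.11 (SD, n = 3 each), 2.34-fold higher. The second, 205873_at, which the platform annotation ties to a RefSeq mRNA, read 5.33, 5.40 and 5.34 at ambient pressure. Under negative pressure it read 4.42, 4.57 and 4.47, so that all 3 arrays lay below every ambient array. Its means were 5.35 ± 0.04 and 4.49 ± 0.08 (SD, n = 3 each), 1.82-fold lower.

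The remaining 3 PIGL probe sets were dim, with group means from 1.77 to 2.70. Of these, 232262_at differed by -0.31, its groups not overlapping, 239943_x_at by -0.19 and 1560391_at by 0.05, both with overlapping groups. The mean of all 5 probe sets put PIGL at -0.019. No single direction of PIGL RNA can be read from these probe sets together. Without both replicate 3 arrays the brightest stood at 1.17 and the second at -0.86. The files do not give where in the transcript each probe set lies, and transcript forms were not resolved here.

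**Figure D1:**
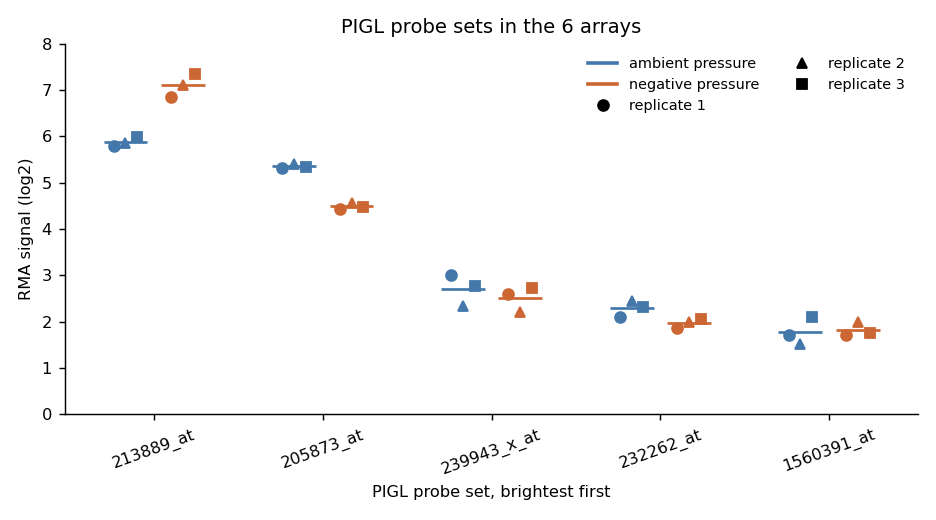
RMA signal (log2) of the 5 PIGL probe sets, brightest first, in each of the 6 arrays, with horizontal lines at the group means (n = 3). The brightest probe set is higher under negative pressure in all 3 arrays (6.86 to 7.34 against 5.79 to 6.0) and the second lower in all 3 (4.42 to 4.57 against 5.33 to 5.40).

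The gap between the 2 brightest PIGL probe sets was formed within each array, which cancels an offset common to both. It was -0.47, -0.46 and -0.66 in ambient replicates 1, 2 and 3, and -2.44, -2.54 and -2.87 in the negative pressure replicates. The gap moved by -2.09, the largest shift in size among 10523 genes with at least 2 single-gene probe sets. The next was KLHL24 at 1.93, named after its value was seen. Only 46 of the 10523 genes (0.437%) had a shift beyond 1 in size. As this gap is what chose the family, its rank is a description.

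PIGL lies on chromosome 17 of GRCh38.p14, from base 16217210 to base 16326411. RefSeq's promoter window, 250 bases before to 50 after the start, is shown as the sequence at the start of the gene whose probe sets moved apart. It is chr17:16216960-16217259, plus strand, with capitals marking the only match among 5 searched motifs, an ETS core read on the opposite strand.
PIGL promoter: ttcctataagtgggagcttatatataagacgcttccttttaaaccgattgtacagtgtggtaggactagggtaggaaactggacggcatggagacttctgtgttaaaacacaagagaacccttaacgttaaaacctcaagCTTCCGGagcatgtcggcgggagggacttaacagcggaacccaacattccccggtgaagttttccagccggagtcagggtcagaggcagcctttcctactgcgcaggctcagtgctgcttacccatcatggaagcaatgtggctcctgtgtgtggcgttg

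All 5 motifs were searched on both strands, and none contains another. The GC box was searched as GGGCGG. The ETS core was searched as CCGGAAG. The cyclic AMP response element was searched as TGACGTCA. The remaining 2 were the CCAAT box, by those letters, and the TATA box, searched as TATAAA. RefSeq promoters matched 27 of the 31 genes. The PIGL window was among the poorer in GC, at 50.7% against a member median of 64.3% and a range of 46.3% to 84.3%. It held 12 CpG, against a member median of 25. The ETS core stood in 9 of 27 member windows (33.3%), and in 2255 of 15843 windows of protein-coding genes (14.2%). The GC box stood in 13 of 27 (48.1%) against 58.5% of coding genes, and CCAAT in 9 (33.3%) against 36.4%. The cyclic AMP response element and the TATA box stood in 1 window each (3.7%), against 2.59% and 9.63%. These shares are descriptions of letters in a window, not of bound factors.

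The ETS core is the motif whose share in the family lay furthest above that of coding genes, so the other windows that hold it are shown here with 11 bases on each side. Capitals mark the core in either orientation, and PGAP3 holds it on both strands.
PIGB, chr15:55319134-55319162, plus strand: gttcccggttaCTTCCGGgcttgcgagcg
DPM1, chr20:50958532-50958560, minus strand: acgtaattccgCTTCCGGcatctggctca
DPM3, chr1:155140526-155140554, minus strand: accagggaggaCTTCCGGacgccaacatc
PIGO, chr9:35096562-35096590, minus strand: ccgccgccgcaCTTCCGGgtgccattgca
PGAP3, chr17:39688069-39688097, minus strand: gaacacaggaaCTTCCGGttactccggaa
PGAP3, chr17:39688057-39688085, minus strand: ttccggttactCCGGAAGtggaagcttca
PIGS, chr17:28571491-28571519, minus strand: ggccggagcagCCGGAAGctagcatggcg
DPM2, chr9:127937867-127937895, minus strand: gcagtccaaagCCGGAAGagcgtggaccc
PIGC, chr1:172444068-172444096, minus strand: ttgcggcggacCCGGAAGtgcttggccac
The changes of these 8 genes ran from -0.28 (PIGB) to 0.34 (DPM3), and none passed. A start on the opposite strand, upstream and pointing away, lay within 300 bases of 12 of 27 member starts (44.4%), against 17.2% of coding genes counted in the same way. PIGO is not among the 12, since the start of PIGO-AS1 lies inside the PIGO gene. PIGW, for example, starts 119 bases from MYO19, and PIGB 99 bases from RAB27A.

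Among the measured neighbours of PIGL none passed as higher, and 1 lay above 0. Of 9 measured neighbours, 0 rose, 2 fell and 7 did not pass, with a median of -0.11 against 0.01 for all genes. Of all genes, 0.607% rose and 0.314% fell. TTC19, a mitochondrial protein of respiratory complex III assembly, read 9.0, 8.93 and 8.95 at ambient and 8.48, 8.22 and 8.24 under negative pressure. Its groups did not overlap, and it fell by 0.65 ± 0.12 (SE; limma adjusted p = 0.0419). ZNF624, a zinc finger gene, read 3.35, 3.40 and 3.05 at ambient and 2.60, 2.57 and 2.45 under negative pressure. It fell by 0.73 ± 0.13 (SE; limma adjusted p = 0.0396) on a dim signal, its mean lying under 3.79, the limit used here for a dim gene. The other 7, ADORA2B, ZSWIM7, CENPV, UBB, TRPV2, LRRC75A and ZNF287, stood between -0.17 and 0.05. ZSWIM7 turned from -0.13 to 0.056 with the mean of its probe sets and to 0.24 with its most variable one. NCOR1, whose start lies 1676 bases from that of PIGL on the opposite strand, was not analysed here. The call of TTC19 was lost whichever array was left out. Its adjusted p was 0.183, 0.197 and 0.0867 when ambient replicate 1, 2 or 3 was dropped. Dropping negative pressure replicate 1, 2 or 3 gave 0.0891, 0.178 and 0.0778, and dropping both replicate 3 arrays 0.0581. ZNF624 lost its call when ambient replicate 1 (0.182) or 2 (0.220), or any negative pressure array (0.142, 0.146 and 0.0778), was dropped. With median centring neither passed (0.0571 and 0.0624).

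**Figure D2:**
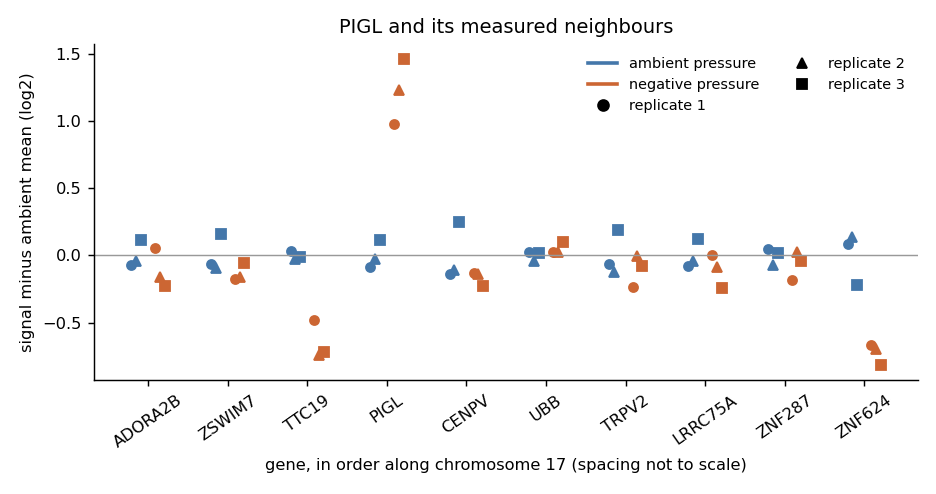
Signal of the main probe set of PIGL and its 9 measured neighbours in each array, minus the mean of the ambient arrays (log2), in order along chromosome 17 with spacing not to scale. The negative pressure arrays of PIGL lie above its ambient arrays, those of TTC19 and ZNF624 below, and the groups of the other 7 overlap. The second PIGL probe set, not shown, was lower under negative pressure.

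None of the 30 other GPI anchor genes passed in limma, where 1 had an unadjusted p under 0.05, against 11.7% of all genes; 0.92% of all genes passed the adjusted threshold. The smallest adjusted p was 0.293. Changes ran from -0.46 to 0.34 with a median of 0.04, against 0.01 for all genes. Of the 30, 18 lay above 0, against 53.4% of all genes. The counts above and below 0 given by step further on cover few genes each and were not tested. The 95% intervals of 29 genes lay within a change of 1 in either direction, and their widths ran from 0.46 to 1.77 over the 30. The groups did not overlap for 5 genes (16.7%), against 17.3% of all genes. These were PIGF, PIGS, PIGC and PIGV, higher under negative pressure, and PGAP3, lower. With the replicate number as a block, 0 of 30 passed either (smallest adjusted p = 0.0695, for PIGW), against 4.94% of all genes, and without both replicate 3 arrays 0 of 30, against 1.88%.

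**Figure D3:**
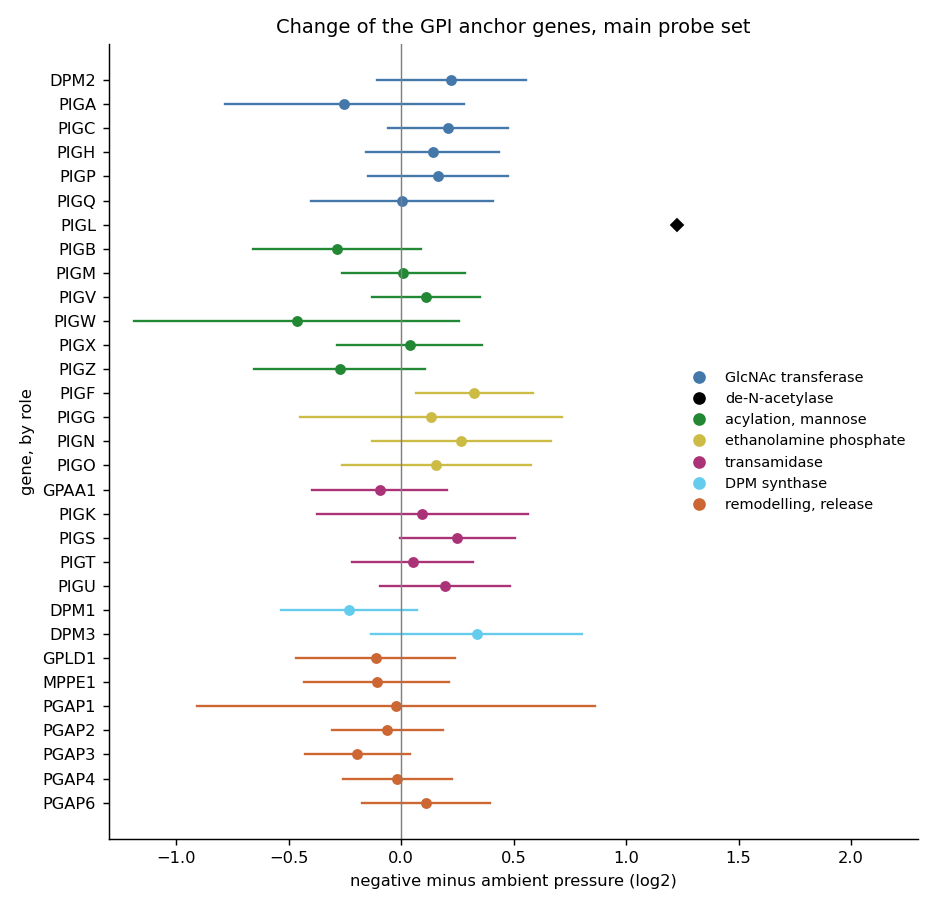
Change of the main probe set of the 31 GPI anchor genes (negative minus ambient pressure, log2), with 95% confidence intervals from limma (3 arrays per group), coloured by role; PIGL, a diamond, is shown without an interval because its change chose the family. PIGL stands at 1.23, and the other 30 lie between -0.46 and 0.34. The second PIGL probe set, not shown, stood at -0.87.

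The first step is carried out by a transferase complex that adds N-acetylglucosamine to phosphatidylinositol. Its 6 measured genes did not pass, and 5 of them lay above 0. PIGC, a membrane subunit, read 8.51, 8.29 and 8.26 at ambient and 8.52, 8.52 and 8.65 under negative pressure, a change of 0.21 ± 0.12 (SE; limma adjusted p = 0.579). The groups were narrowly separated, ambient replicate 1 lying just under negative pressure replicate 2. The second PIGC probe set stood at 0.27 with overlapping groups. PIGA, the catalytic subunit, stood at -0.25 and was lowest in replicate 3 of each group, 6.36 and 5.99 against 6.62 to 6.96 in the other 4 arrays. PIGH (0.14), PIGP (0.16) and PIGQ (0.00), further subunits, had overlapping groups. DPM2, a subunit shared with dolichol phosphate mannose synthase, stood at 0.22, with negative pressure replicate 1 at 8.08 and the other 5 arrays at 7.49 to 7.69.

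PIGW acylates the inositol, and PIGM with its partner PIGX, PIGV, PIGB and PIGZ add the mannoses in turn. None of these 6 passed, with changes from -0.46 to 0.11. PIGW read 7.38, 7.26 and 6.65 at ambient and 6.98, 7.09 and 5.84 under negative pressure. Its groups overlapped, and its change of -0.46 ± 0.32 (SE; limma adjusted p = 0.684) was -0.07 without negative pressure replicate 3. PIGB stood at -0.28 on its main and -0.34 on its second probe set, the groups of the second not overlapping. PIGZ, which adds a further side mannose, stood at -0.27, where ambient replicate 2 read 4.85 and the other arrays 4.12 to 4.46. PIGV read 7.97, 7.96 and 7.86 at ambient and 8.04, 7.99 and 8.09 under negative pressure, a difference of 0.11. The second PIGV probe set stood at 0.16 with overlapping groups. PIGM (0.01) and PIGX (0.04) had overlapping groups.

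Ethanolamine phosphate is added by PIGN to the first mannose, by PIGO to the third and by PIGG to the second, with PIGF as partner of PIGO and PIGG. All 4 lay above 0 and none passed. PIGF read 7.79, 7.91 and 7.72 at ambient and 8.02, 8.21 and 8.16 under negative pressure. All negative pressure arrays lay above the ambient ones, and the change was 0.33 ± 0.12 (SE; limma adjusted p = 0.293; 95% interval 0.07 to 0.59). The second PIGF probe set read 7.57, 7.47 and 7.69 against 7.96, 7.90 and 8.22, a change of 0.45 (limma adjusted p = 0.207 over probe sets). Both probe sets of PIGF therefore gave separated groups in the same direction. PIGN stood at 0.27, PIGO at 0.16 and PIGG at 0.13. PIGG was lowest in replicate 3 of each group, 6.97 and 6.83 against 7.44 to 7.84 elsewhere.

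The transamidase joins the anchor to the protein's carboxyl end. Of its 5 genes none passed, and 4 lay above 0. PIGS read 7.24, 7.28 and 7.12 at ambient and 7.52, 7.51 and 7.35 under negative pressure, separated groups with a change of 0.25 ± 0.11 (SE; limma adjusted p = 0.444). PIGU stood at 0.20, with negative pressure replicate 3 at 7.40 and ambient replicates 1 and 2 at 7.43. PIGK, the catalytic subunit, stood at 0.09, PIGT at 0.05 and GPAA1 at -0.10. The 3 GPAA1 probe sets all lay below 0, between -0.17 and -0.05.

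Dolichol phosphate mannose synthase supplies the mannose donor. DPM1, its catalytic subunit, read 11.03, 10.79 and 10.67 at ambient and 10.64, 10.71 and 10.45 under negative pressure, a change of -0.23 (limma adjusted p = 0.593). DPM3, which tethers DPM1 to the membrane, stood at 0.34 and was highest in replicate 3 of each group, 6.35 and 6.87. The groups of both genes overlapped.

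Of the 7 genes that remodel or release the anchor, 6 lay below 0 and none passed. PGAP3, which with PGAP2 exchanges a fatty acid of the anchor in the Golgi, read 5.57, 5.57 and 5.61 at ambient and 5.39 in each negative pressure array. The groups were separated, with a change of -0.19 ± 0.10 (SE; limma adjusted p = 0.534), but the second PGAP3 probe set stood at -0.03 with overlapping groups. PGAP1, the inositol deacylase, stood at -0.02 with the widest interval of the family, -0.91 to 0.86. Its replicate 3 arrays read 3.59 and 3.27 and the other 4 read 4.48 to 4.75. PGAP2 stood at -0.06, PGAP4 (which adds N-acetylgalactosamine to the anchor) at -0.02, MPPE1 (which removes an ethanolamine phosphate) at -0.11 and PGAP6 (a GPI-cleaving phospholipase) at 0.11. GPLD1, a secreted phospholipase that cleaves the anchor, stood at -0.11 and was the only member with a mean under 3.79.

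Probe sets of the other members were compared in the same way. Besides PIGL, 20 members had at least 2 single-gene probe sets. The second minus the main one moved by -0.29 to 0.21, and 0 of 20 passed in limma, against 0.0665% of 10523 genes. At an unadjusted p under 0.05 it was also 0 of 20, against 7.43%. The sign differed between the 2 probe sets in 8 of 20 members (40%) and in 39.5% of all such genes. PIGK had the smallest p: the gap was -0.66, -0.62 and -0.72 at ambient and -1.07, -0.92 and -0.84 under negative pressure, a shift of -0.28 (limma adjusted p = 0.765). Over single probe sets, 0 of 67 outside PIGL passed, against 0.647% of 41091, and 4 had an unadjusted p under 0.05 (10.8% of all). These were both of PIGF's probe sets, the second of PIGB and a dim one of PIGG.

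**Figure D4:**
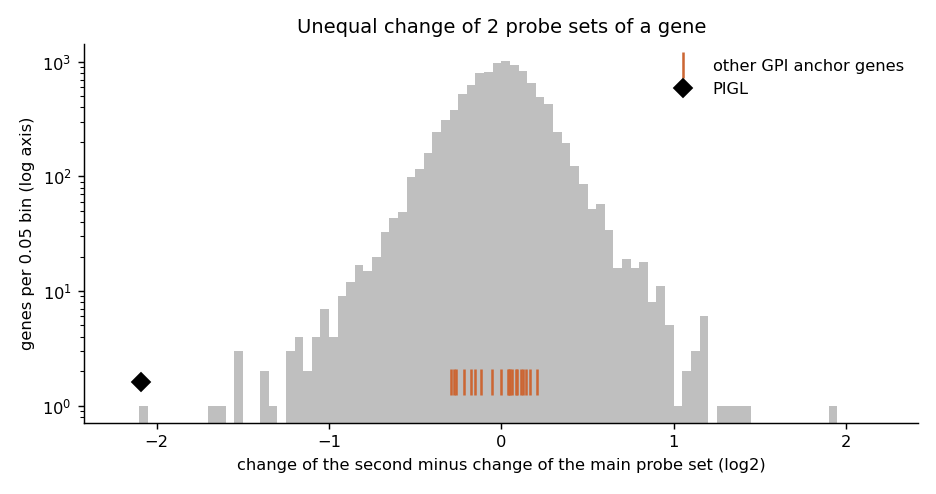
Number of genes (log axis) by the change of the second brightest minus the change of the brightest probe set (log2, bins of 0.05), over 10523 genes, with PIGL as a diamond and the 20 other GPI anchor genes as orange ticks; the height of these marks has no meaning. PIGL lies at -2.09 and the others between -0.29 and 0.21.

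Part of the spread in the family followed the replicate number. The replicate 3 array was the lowest of its group in both groups for 11 of 31 genes (35.5%), against 25.4% of all genes. It was the highest in both for 8 (25.8%), against 22.3%. PGAP1 was lower in replicate 3 than the mean of replicates 1 and 2 by 0.96 at ambient and 1.42 under negative pressure, and PIGW by 0.67 and 1.2. PIGG was lower by 0.52 and 0.93, PIGA by 0.57 and 0.74 and PIGK by 0.42 and 0.71. DPM3 was higher by 0.42 and 0.70, and PIGQ by 0.40 and 0.52. What sets the replicate 3 arrays apart was not tested.

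**Figure D5:**
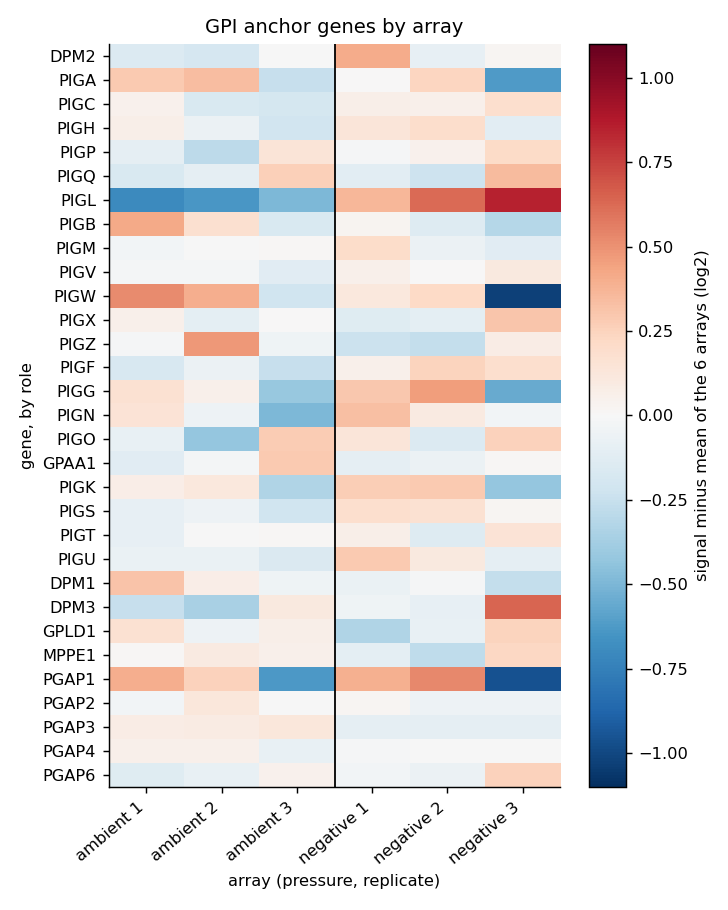
Signal of the main probe set of each of the 31 GPI anchor genes in each array, minus the gene's mean over the 6 arrays (log2), with a line between ambient and negative pressure. The main probe set of PIGL is low in the 3 ambient and high in the 3 negative pressure arrays, and its second, not shown, went the other way. PGAP1, PIGW, PIGG, PIGA and PIGK are low in replicate 3 of both groups.

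The proteins that carry the anchor were read from a list of 111 genes, 102 of them measured and 41 of these with a mean under 3.79. Of the 102, 2 rose, 0 fell and 100 did not pass (1.96%, against 0.92% of all genes in both directions), with a median of 0.04. At an unadjusted p under 0.05 it was 17 of 102, against 11.7% of all genes. Without both replicate 3 arrays 3 passed, against 1.88% of all genes. LYPD1, a Ly6-type protein that modulates acetylcholine receptors, read 5.48, 5.88 and 5.81 at ambient and 6.83, 6.80 and 6.56 under negative pressure. Its groups did not overlap, and it rose by 1.0 ± 0.14 (SE; limma adjusted p = 0.0211). ALPP, placental alkaline phosphatase, read 5.91, 5.90 and 6.26 at ambient and 7.44, 6.87 and 6.87 under negative pressure. It rose by 1.03 ± 0.18 (SE; limma adjusted p = 0.0363). ALPP is close in sequence to ALPG and ALPI, which a probe set may also detect. Those genes stood at 0.34 and 0.23, named after their values were seen.

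Both calls were lost when ambient replicate 1 or 2, or negative pressure replicate 1 or 2, was dropped. LYPD1 then had an adjusted p of 0.0898, 0.100, 0.0980 and 0.107, and ALPP of 0.165, 0.194, 0.105 and 0.107. ALPP also missed with the most variable probe set of each gene tested (0.0502). GAS1, a growth arrest protein, stood at 0.87 (limma adjusted p = 0.0597) and VNN1, a pantetheinase, at -0.81 (0.0716). With the replicate block 5 of the 102 rose and 4 fell (8.82%, against 4.94% of all genes), GAS1 and VNN1 among them (0.00484 and 0.0163). Without negative pressure replicate 3, VNN1 passed (-0.95, adjusted p = 0.0428). Without both replicate 3 arrays VNN1 stood at -1.09 (limma adjusted p = 0.0101) and GAS1 at 0.68 (0.109). The complement regulators CD55 (0.41, adjusted p = 0.284) and CD59 (0.04, 0.958), named after their values were seen, did not pass.

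Genes that supply or use dolichol phosphate mannose did not pass, 0 of 13 in limma (0.92% of all genes) and 0 at an unadjusted p under 0.05 (11.7% of all genes), with a median of 0.12. The smallest p were those of POMT1 (0.22), DHDDS (-0.15), PMM1 (0.16) and ALG12 (0.17), with adjusted p from 0.596 to 0.749. The p24 cargo receptors and the COPII coat carry GPI proteins out of the endoplasmic reticulum. Of 13 genes listed for them, 0 passed in limma (0.92% of all genes), with a median of -0.04. At an unadjusted p under 0.05 it was 1 (11.7% of all genes), TMED8 at -0.33 (limma adjusted p = 0.311). TMED8 was listed by its symbol, and whether it acts as a cargo receptor was not examined. It was followed by TMED9 (-0.26), TMED1 (0.26) and TMED3 (-0.17).

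Ethanolamine and inositol lipid genes gave 0 of 13 in limma (0.92% of all genes) and 2 at an unadjusted p under 0.05 (11.7% of all genes), with a median of -0.01. With the replicate block 1 of the 13 rose, against 4.94% of all genes in both directions. CDIPT, the synthase of phosphatidylinositol, read 8.99, 8.81 and 8.79 at ambient and 9.22, 9.29 and 9.46 under negative pressure. Its groups did not overlap, with a change of 0.46 ± 0.12 (SE; limma adjusted p = 0.148, with the replicate block 0.0494). PEMT stood at -0.38, PTDSS1 at 0.20 and PCYT2, of ethanolamine lipid synthesis, at -0.18. Of 6 genes listed for N-acetylglucosamine supply, 0 passed in limma (0.92% of all genes), with a median of -0.13. At an unadjusted p under 0.05 it was 2 (11.7% of all genes). With the replicate block 2 of the 6 fell, against 4.94% of all genes in both directions. These 2, a deaminase and a maker of the activated sugar, do not give 1 direction of supply. GNPDA2, a glucosamine phosphate deaminase, stood at -0.53 (limma adjusted p = 0.0870, block 0.0199). UAP1, which makes the activated sugar that the first step uses, stood at -0.69 (0.432, block 0.00872). UAP1 read 9.50 and 8.54 in replicate 3 of the ambient and negative pressure groups. The remaining 4 arrays read 10.25 and 10.14 at ambient and 9.72 and 9.57 under negative pressure. NAGK stood at 0.28 and GNPNAT1 at -0.19.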

How the data were processed

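The deposited values are log2 signals that the authors obtained with RMA (background correction, normalization between arrays and 1 value for each probe set). The submitters' processing notes name Expression Console 1.2 of Affymetrix. They lay between 0.890 and 13.4 over 54675 probe sets. The labels state no filter, scan date or batch. Genes were named from the platform annotation, coordinates and promoters from RefSeq (GRCh38.p14).

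Negative and ambient pressure were compared with lmFit and eBayes of limma 3.58.1 (R 4.3.3), with no block and no filter, over all 19775 genes, over all 41091 single-gene probe sets and over the within-array gap between the 2 brightest probe sets of 10523 genes. Benjamini-Hochberg adjustment ran over each whole table. The fit was tested on simulated data with independent noise in each array. That simulation did not include the offset of the replicate 3 arrays, so it does not cover it. Every member could be named, and from each of the other lists the genes that passed or the 4 with the smallest p. Of the PIGL neighbours, all measured genes could be named. Other names are marked as chosen after their values were seen. Members and lists were chosen with earlier results of these data known.

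Deviations from the group means correlated at 0.27, 0.27 and 0.53 between arrays with the same replicate number 1, 2 and 3 (across genes, which are not independent), and each exceeded 0.1. Equal numbers were treated as pairs in the fit with a replicate block, though the labels do not state a pairing. Arrays with unlike numbers were not compared. The 3 deviations within a group are not independent, so the shared offset of the replicate 3 arrays enters all 3 correlations. The check therefore cannot decide whether replicates 1 and 2 are pairs. Calls made only with the block rest on this assumed pairing.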

Additional observations from a re-analysis of the deposited data

How the results depend on the processing

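The alternatives were the replicate block, leaving out each array or both replicate 3 arrays, 3 renormalizations, trend and robust variance, array weights, rows of low mean left out, and other choices of probe set. The count of 0 among the 30 GPI anchor genes besides PIGL was 0 under every one of these that was run, and so was the count among their second minus main probe sets. Over single probe sets it was 1 with array weights, the second of PIGF (0.45, limma adjusted p = 0.0431), and 0 otherwise. The weights were 3.43 for ambient replicate 2, 0.37 and 0.34 for the ambient and negative pressure replicate 3 arrays, and 1.13 to 1.45 for the rest. Every count with array weights given here therefore leans on ambient replicate 2 and little on replicate 3. PIGL's brightest probe set stood at 1.11 to 1.35 and its second at -0.91 to -0.83 when 1 array was left out; the mean of its 5 probe sets gave -0.019 because it averages probe sets of opposite sign. ZSWIM7 turned to 0.056 with the mean of its probe sets and to 0.24 with its most variable one; the cause was not tested.

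Over the 6 other lists, 4 genes passed; it was 14 with the replicate block, 16 with array weights, 2 with median centring and 0 to 3 when 1 array was left out. Over all genes, 182 became 976 with the block, 1145 with array weights, 372 without both replicate 3 arrays and 7 to 145 without 1 array. For second minus main probe sets, 7 genes became 113, 129, 50 and 0 to 2. For anchored proteins, 2 became 9 with the block, 11 with array weights and 0 to 3 without 1 array. The block changed the calls of GAS1, VNN1, CDIPT, GNPDA2 and UAP1 and of no other gene named by rule. Fewer arrays leave fewer degrees of freedom. Dim signals (a mean under 3.79), such as those of GPLD1 and ZNF624, limit what can be read from them.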

Other observations

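PIGY, a small subunit of the first transferase, is encoded on 1 transcript with PYURF and was read by 2 probe sets that name both genes. The brighter read 9.68, 9.89 and 9.75 at ambient and 9.72, 9.91 and 9.81 under negative pressure, a difference of 0.04. The other read 7.05, 7.07 and 6.58 at ambient and 7.28, 7.22 and 6.57 under negative pressure, a difference of 0.13, with replicate 3 lowest in both groups. Neither passed in limma over all probe sets (adjusted p = 0.962 and 0.933). The 10 genes with the largest shift between their 2 brightest probe sets held, after PIGL and KLHL24, ZNF451 (-1.65), TMT1A (-1.62), STON1 (-1.54) and SSH2 (-1.52). AHNAK (-1.51), KLHL7 (1.41), PSPC1 (1.38) and ASNS (-1.38) completed the 10. All were named after their values were seen.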
